A study of Homo sapiens with 12 samples.

Results

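EGR1, EGR2, EGR3 and EGR4, NR4A1, NR4A2 and NR4A3, and DUSP1, DUSP5 and DUSP6 are 10 genes that cells transcribe rapidly when growth factor and stress signals reach the nucleus. They were taken by symbol from the expression arrays, as every probe annotated with one of these names, out of 34423 distinct names (those of unnamed transcripts included). This gave 12 of the 50599 distinct probes, with 2 probes each for NR4A2 and NR4A3 and 1 for each of the other 8 genes. Each gene is described below by the probe with the highest mean signal, and the second probes of NR4A2 and NR4A3 are given beside it.

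The arrays measured RNA of Colo320DM, a human colorectal cancer cell line, in which TET1 had been knocked down. TET1 is an enzyme that oxidises 5-methylcytosine in DNA. The 12 arrays formed 4 groups of 3 clones. Control clones carried a negative control microRNA plasmid and were mock treated or were exposed for 72 h to 5-aza-dC (5-aza-2'-deoxycytidine, which inhibits DNA methyltransferases) at 1 µM. TET1 knockdown clones carried a vector encoding a microRNA against TET1 and went through the same mock treatment or drug exposure. Drug and medium were replaced every 24 h, and all 6 clones, controls included, had been selected with G418 and expressed GFP from the plasmid. Each of the 6 lines was established as a single clone, so the spread within a group is the spread between clones of unlike history. The p-values measure that spread among 3 clones of each type. No separate cultures of the same clone were profiled under the same condition.

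EGR proteins are zinc finger transcription factors that bind GC-rich DNA and turn a brief signal into a longer change of transcription. The NR4A proteins are orphan nuclear receptors that act as immediate-early transcription factors. The DUSP proteins are dual-specificity phosphatases that remove the activating phosphates from MAP kinases. DUSP5 and DUSP6 act on the extracellular signal-regulated kinases (ERK) and are themselves induced by ERK signalling, which makes them feedback inhibitors, and DUSP1 also acts on the JNK and p38 kinases. The immediate-early promoters are well known targets of serum response factor, which binds CArG boxes together with ETS-domain partners, and of CREB, which binds cyclic AMP response elements (CRE).

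The arrays lay on 2 slides, each scanned once. All mock knockdown clones were on slide 1, together with clones 1 and 2 of the mock control group and clones 1 and 3 of the treated knockdown group. All treated control clones were on slide 2, together with clone 3 of the mock control group and clone 2 of the treated knockdown group. No slide held all 4 groups. Of 27200 probes measured on all arrays and well above background on at least 3 of them, 26% had no overlap between the arrays of slide 1 and those of slide 2. Values within a slide are therefore given beside main results of the members and of TET1, but not beside those of the other listed genes and the markers. TET1 itself was at 4.48 ± 0.23 (SD, n = 3) in mock control and 3.56 ± 0.04 in mock knockdown clones, at 52.6% of control with no overlap, although this difference was not called (adjusted p = 0.276). In treated clones TET1 was at 4.21 ± 0.19 in control and 3.54 ± 0.68 in knockdown clones. The TET1 difference between mock clones on slide 1 was -0.83, and that between treated clones on slide 2 was 0.09. Treated knockdown clone 2 was at 4.31 for TET1, within the range of the control clones, so results of treated knockdown clones are also given without it where that changes them. It was the only knockdown array on slide 2, so that clone and slide cannot be told apart for this value. Of the epithelial and colorectal markers, CDX2, KRT8, KRT18 and KRT20 were well above background on 12 of 12 arrays and EPCAM on 10, whereas CDH1 was not on any array and VIL1 only on 1.

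All signals below are log2 values of the processed signal minus the 75th percentile of the same array. A value of 0 is thus as bright as that percentile, and a difference of 1 is a doubling. The 75th percentile was 240.7 to 359 signal units, and 45.74% to 52.88% of probes were well above background. Levels of different probes are not compared with each other. A difference is called where its limma p-value, adjusted over all probes tested in that comparison by the Benjamini-Hochberg method, was under 0.05. In bulk RNA, fewer cells holding a transcript and less of it per cell cannot be told apart.

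RefSeq promoter sequences (GRCh38.p14) were found for 7 of the 10 genes. Of the members tested, EGR1, EGR4, DUSP1 and DUSP6 had all mock knockdown clones below all mock control clones, as described further down. The share of all probes with such a separation is not given here, so it served only to choose sequences. The promoter sequences of these 4 genes are shown. Each is the stretch of 200 bases before the transcription start, 5′ to 3′ on the strand of the gene, with CArG boxes and CRE cores (TGACGT on either strand) in capitals.
EGR1, chr5:138465279-138465478, plus strand: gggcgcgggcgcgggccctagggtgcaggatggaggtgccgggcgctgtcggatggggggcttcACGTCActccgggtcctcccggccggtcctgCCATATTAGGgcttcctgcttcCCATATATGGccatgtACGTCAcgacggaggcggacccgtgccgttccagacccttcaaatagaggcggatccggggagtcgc
EGR4, chr2:73293549-73293748, minus strand: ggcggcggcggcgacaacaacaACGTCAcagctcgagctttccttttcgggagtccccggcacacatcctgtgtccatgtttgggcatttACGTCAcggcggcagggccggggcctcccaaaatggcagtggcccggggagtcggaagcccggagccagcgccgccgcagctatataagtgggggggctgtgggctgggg
DUSP1, chr5:172771196-172771395, minus strand: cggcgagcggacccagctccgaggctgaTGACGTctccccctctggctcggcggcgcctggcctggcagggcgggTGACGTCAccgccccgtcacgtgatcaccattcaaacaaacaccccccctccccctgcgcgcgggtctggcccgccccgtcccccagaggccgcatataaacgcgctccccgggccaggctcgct
DUSP6, chr12:89352502-89352701, minus strand: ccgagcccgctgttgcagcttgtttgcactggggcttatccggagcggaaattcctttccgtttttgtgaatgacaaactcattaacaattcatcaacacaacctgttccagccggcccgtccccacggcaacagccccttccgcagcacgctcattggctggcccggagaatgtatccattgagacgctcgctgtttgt

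The EGR1 stretch held 2 CArG boxes, which began 105 and 83 bases before the start, and 2 CRE cores, which began 136 and 67 bases before it. EGR4 held 2 CRE cores, at 178 and 110 bases, and no CArG box. DUSP1 held a CRE core at 172 bases and, further down, a palindromic one that is matched on both strands, by overlapping matches at 125 and 123 bases. DUSP6 held neither motif. Over 250 bases before the start, a CArG box was found in 1.16%, a CRE core in 7.1% and an EGR site (GCGNGGGCG on either strand) in 8.41% of 35116 promoters. Among the 7 genes with a sequence, a CArG box was found in 2 (EGR1 and 1 of the 3 listed EGR2 promoters), a CRE core in 5 (these and EGR4, NR4A3 and DUSP1) and an EGR site in EGR1 only. CArG boxes and CRE cores do not overlap in these sequences, and these matches describe letters in the windows searched.

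EGR1 was the member with the largest differences. Its signal was highest in mock control clones and 76.3-fold lower in mock knockdown clones. After 5-aza-dC it was 36.7-fold lower in control clones and did not change by a called amount in knockdown clones. All 9 arrays outside the mock control group thus lay at low EGR1, within 2 log2 units of each other.

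The EGR1 probe (A_23_P214080) lies on hg19 at chromosome 5, 137804891 to 137804950, on the plus strand. Its log2 signal in mock control clones 1, 2 and 3 was 4.52, 5.12 and 3.84. In mock knockdown clones 1, 2 and 3 it was -1.89, -1.56 and -1.83. The groups were far apart and the knockdown clones differed from each other by less than the control clones did. The difference was -6.25 (SE 0.34, 95% interval -7.07 to -5.44, adjusted p = 0.00147), so that knockdown clones held 1.31% of the control signal. On slide 1, where 2 control and all 3 knockdown clones lay, it was -6.58. Of the alternatives run, leaving out each clone included, only the methods' t-test lost the call (adjusted p = 0.0962).

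After treatment, EGR1 in control clones 1, 2 and 3 was at -0.20, -1.07 and -0.84. Each of them fell, with responses (treated minus mock) of -4.72, -6.19 and -4.68. The fall of the group was -5.20 (SE 0.38, 95% interval -6.12 to -4.27, adjusted p = 0.00143), to 2.73% of the mock signal, and on slide 2 alone, with mock control clone 3 against the 3 treated clones, it was -4.55. It ranked first by size among all probes called lower in this comparison. The call was lost without control clone 1 (-5.43, adjusted p = 0.0694) and without control clone 2 (-4.70, adjusted p = 0.0911), which left 2 arrays a group. It was also lost with clone and slide both as blocks (-4.68, adjusted p = 0.114).

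In treated knockdown clones 1, 2 and 3, EGR1 was at -1.22, -2.10 and -1.91. The responses of these clones were 0.67, -0.54 and -0.08, with no common direction. The group difference from mock knockdown clones was 0.02 (95% interval -0.67 to 0.70, adjusted p = 0.989), and its sign turned with other scalings of the arrays. Treated knockdown clones all lay below treated control clones, but the difference of -1.04 (SE 0.34, 95% interval -1.85 to -0.23) was not called (adjusted p = 0.215), and on slide 2 it was -1.40. From high to low, the group means were thus 4.49 in mock control, -0.70 in treated control, -1.75 in treated knockdown and -1.76 in mock knockdown clones, and only the first of these steps was a called difference.

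The response to 5-aza-dC differed between clone types. The interaction, the response of knockdown clones minus that of control clones, was 5.21 (SE 0.50, 95% interval 4.09 to 6.33, adjusted p = 0.0079), and it was 4.96 with slide as a block (adjusted p = 0.00564). With each clone as a block, which pairs the mock and treated arrays of a clone, the estimate stayed at 5.21 but was not called (adjusted p = 0.164). It was also not called without any one of control clones 1 and 2 or of the knockdown clones (4.72 to 5.49 over all clones left out).

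**Figure D1:**
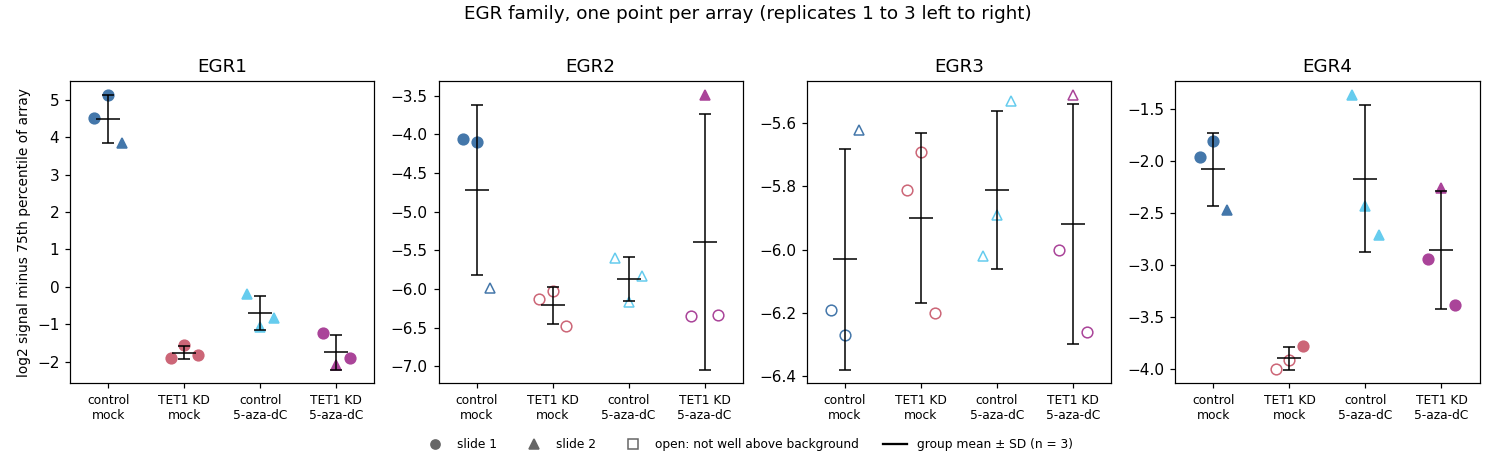
Log2 signal minus the 75th percentile of the array (vertical axis, a separate range in each panel) of the EGR genes in each of the 12 arrays, by group, with clones 1 to 3 from left to right. Circles are slide 1, triangles slide 2, open symbols are not well above background, and bars are the mean ± SD (n = 3). EGR1 sits between 3.84 and 5.12 in mock control clones and between -2.10 and -0.20 in all other arrays, EGR4 is lowest in mock knockdown clones, and EGR3 is open throughout.

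EGR4 was well above background on 10 of 12 arrays. Its probe (A_23_P380318, chromosome 2, 73518051 to 73518077, minus strand) was at -1.96, -1.81 and -2.47 in mock control clones and at -4.0, -3.92 and -3.78 in mock knockdown clones. The groups did not overlap, and the probe was well above background on 3 of 3 control but 1 of 3 knockdown arrays. The difference of -1.82 (SE 0.23, 95% interval -2.37 to -1.27) was not called (adjusted p = 0.0709). With slide as a block it was called, at -2.02 (adjusted p = 0.0357), but when every array entered the fit and slide was a block it was not (-1.77, adjusted p = 0.12), and with normexp it was -0.68 (adjusted p = 0.205). Over its alternatives the adjusted p ranged from 0.0357 to 0.521. The fitted difference is no measured fold, since the signal of 2 knockdown arrays was not distinguished from background.

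Unlike EGR1, EGR4 in treated control clones, at -1.36, -2.43 and -2.71, overlapped with the mock control clones, with a difference of -0.08 (95% interval -1.02 to 0.85, adjusted p = 0.901). In treated knockdown clones it was at -2.94, -2.26 and -3.39, above every mock knockdown clone. Each knockdown clone had a higher value after treatment, by 1.06, 1.66 and 0.39, but the difference of 1.04 (SE 0.31, 95% interval 0.28 to 1.80) was not called (adjusted p = 0.332). After treatment, knockdown and control clones overlapped (-0.70, adjusted p = 0.399).

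EGR2 and EGR3 were near the floor. The EGR2 probe (A_23_P46936, chromosome 10, 64571850 to 64571909, minus strand) was well above background on 3 of 12 arrays, namely mock control clones 1 and 2, at -4.06 and -4.10, and treated knockdown clone 2, at -3.49. The other arrays lay between -6.48 and -5.60, and the probe entered none of the comparisons of 2 groups. In the interaction it gave 1.97 (95% interval -0.33 to 4.28, adjusted p = 1). The EGR3 probe (A_23_P216225, chromosome 8, 22545964 to 22546023, minus strand) was well above background on 0 of 12 arrays, with values from -6.27 to -5.51, and could not be tested.

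Among the NR4A genes, none was called in any comparison, and the signal of NR4A1 followed the slides. The NR4A1 probe (A_33_P3319791, chromosome 12, 52453226 to 52453285, plus strand) was at -3.85, -4.74 and -2.50 in mock control clones 1, 2 and 3. It was at -4.10, -3.91 and -4.35 in mock knockdown clones, none of them well above background. Mock control clone 3, the only mock array on slide 2, stood above the other 5 mock arrays.

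After treatment NR4A1 was at -2.27, -2.54 and -2.59 in control clones, all on slide 2. In treated knockdown clones it was at -3.89, -2.53 and -4.04, of which the bright clone 2 was the array on slide 2. All 5 arrays of slide 2 lay between -2.59 and -2.27 and all 7 of slide 1 between -4.74 and -3.85, whatever the clone type or treatment. It was 1 of 9 members, against 26% of all probes, with no overlap between slides.

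On slide 1 the NR4A1 signal of the mock knockdown clones gave only a bound, so no difference is given there. On slide 2, knockdown minus control was -0.06 after treatment and treated minus mock was 0.03 in control clones. Across slides the same comparisons gave values of up to 1.23 (5-aza-dC in control clones, 95% interval -0.07 to 2.53, adjusted p = 0.206) and -1.02 (knockdown after treatment, adjusted p = 0.258). Against mock knockdown clones, the group means gave a bound of 1.17-fold for mock control and 1.35-fold for treated knockdown clones (adjusted p = 0.699, the former not tested). In both cases the groups overlapped, and the brightest array of the brighter group lay on slide 2. Neither bound is therefore read as a higher signal. For such a bound, each array of the dimmer group was set to the probe's own signal or to the lowest signal of any probe well above background, whichever was higher, and the mean of the brighter group was divided by their mean.

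NR4A2 had 2 probes that did not behave alike. The brighter (A_23_P131208, chromosome 2, 157181727 to 157181786, minus strand) ranged from -3.91 to -2.38 over the 12 arrays and was well above background on 10. Its differences were -0.39 for knockdown in mock clones, 0.48 for knockdown after treatment, -0.42 for 5-aza-dC in control and 0.46 in knockdown clones (adjusted p = 0.322 to 0.715). Treated knockdown clones, at -3.08, -2.40 and -3.00, lay above treated control clones, at -3.19, -3.27 and -3.45, but by less than the test could call.

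The other NR4A2 probe (A_33_P3299066, chromosome 2, 157182256 to 157182315, minus strand) was well above background on 8 arrays, and on 0 of 3 in treated control clones. There it was at -4.22, -4.46 and -3.95, against -2.86, -3.35 and -2.79 in treated knockdown clones. The treated knockdown clones were at least 1.81-fold higher (adjusted p = 0.149). Mock control clone 3, on slide 2, was the lowest array of all, at -5.14, and on slide 2 the difference between treated knockdown and control clones was 0.86.

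NR4A3 was measured on every array by its brighter probe. This probe (A_23_P398566, chromosome 9, 102628985 to 102629044, plus strand) was well above background on 12 of 12 arrays, with values from -2.63 to -1.11. Both clone types were higher after treatment, by 0.44 in control (95% interval -0.04 to 0.91, adjusted p = 0.212) and 0.69 in knockdown clones (95% interval -0.10 to 1.47, adjusted p = 0.606), and neither difference was called. Every one of the 6 clones had a response above 0, from 0.03 to 0.85, the smallest in control clone 3, whose arrays were both on slide 2. The other probe (A_23_P306867, chromosome 9, 102595751 to 102595810, plus strand), annotated to another RefSeq transcript of the gene, was well above background only in mock control clone 1, at -3.18, and ranged from -6.63 to -4.55 elsewhere.

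**Figure D2:**
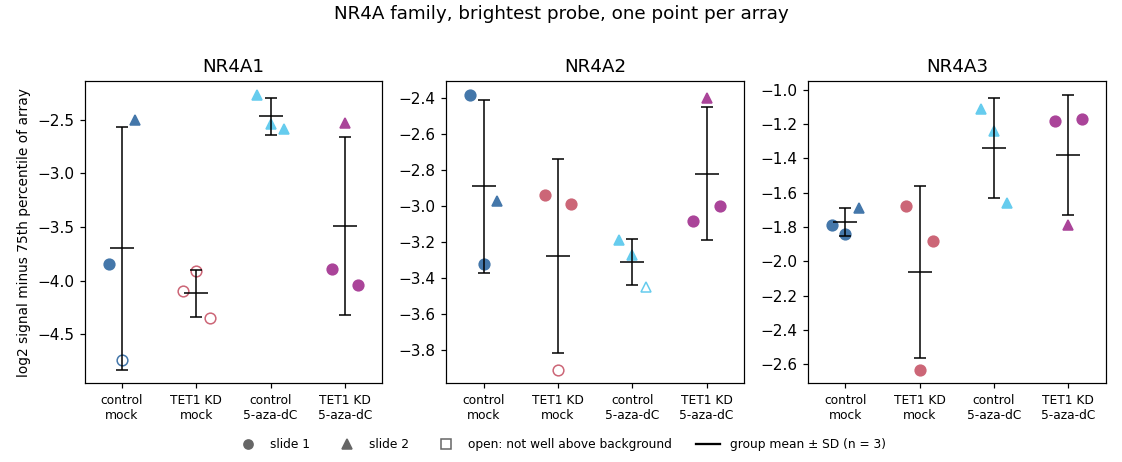
Log2 signal minus the 75th percentile of the array (vertical axis, a separate range in each panel) of the brightest NR4A probes in each of the 12 arrays, by group, with circles for slide 1, triangles for slide 2, open symbols for arrays not well above background and bars for the mean ± SD (n = 3). For NR4A1 the triangles, at -2.59 to -2.27, lie above every circle, at -4.74 to -3.85, in all groups.

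Among the phosphatases, DUSP1 and DUSP6 were lower in every mock knockdown clone than in any mock control clone, and neither difference was called. The DUSP1 probe (A_23_P110712, chromosome 5, 172195296 to 172195355, minus strand) was printed in 10 spots, which were averaged. It was at 1.05, 1.94 and 1.07 in mock control clones and at -0.05, -0.14 and -0.21 in mock knockdown clones. The difference was -1.49 (SE 0.28, 95% interval -2.16 to -0.81, adjusted p = 0.241), and on slide 1 it was -1.63. It was also not called with slide as a block (-1.63, adjusted p = 0.297) or with every array in the fit and no block (adjusted p = 0.0625), but with every array and slide as a block it was called (-1.61, adjusted p = 0.0387).

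DUSP1 in treated control clones was at 0.86, 0.51 and 0.46, below every mock control clone and above every treated knockdown clone, at 0.28, -0.34 and -0.26. The difference of treated from mock control clones was -0.74 (95% interval -1.44 to -0.04, adjusted p = 0.17), and that of treated knockdown from treated control clones -0.72 (95% interval -1.32 to -0.12, adjusted p = 0.226). Each control clone had a lower value after treatment, with responses of -0.18, -1.42 and -0.62. In knockdown clones the difference was 0.03 (95% interval -0.53 to 0.59, adjusted p = 0.976), with a sign that turned on the array median as the scale. The group means were 1.35 in mock control, 0.61 in treated control, -0.11 in treated knockdown and -0.13 in mock knockdown clones. As for EGR1, the mean of mock control clones was highest and that of treated control clones next. The 2 knockdown means were too close to be ordered for either gene. Only EGR1 had a called interaction (DUSP1 0.77, 95% interval -0.07 to 1.61, adjusted p = 1).

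The DUSP6 probe (A_23_P139704, chromosome 12, 89742144 to 89742203, minus strand) was at 0.39, 0.73 and 1.13 in mock control clones and at -2.36, -0.55 and -1.94 in mock knockdown clones. Knockdown clone 2 was the nearest to the control clones. The difference was -2.37 (SE 0.49, 95% interval -3.54 to -1.19, adjusted p = 0.276), a 5.16-fold lower signal, and without knockdown clone 2 it was called (-2.90, adjusted p = 0.0364).

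After treatment DUSP6 was at -0.86, 1.60 and 1.26 in treated control clones and at -2.30, 0.47 and -2.59 in treated knockdown clones, so that the groups overlapped through control clone 1 and knockdown clone 2. The difference of -2.14 (SE 0.98, 95% interval -4.48 to 0.20) was not called (adjusted p = 0.28), and on slide 2, with knockdown clone 2 alone against the control clones, it was -0.20. Without knockdown clone 2 it was -3.11 (adjusted p = 0.0294). Treated control clones then lay on slide 2 alone and treated knockdown clones on slide 1 alone, so that slide and clone type cannot be told apart. The TET1 signal of knockdown clone 2 lay within the range of control clones after treatment. Before treatment that clone had the lowest TET1 (3.51) and the highest DUSP6 (-0.55) of the mock knockdown arrays. A link between TET1 and DUSP6 was not tested.

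Treatment moved DUSP6 in no common direction, with responses of -1.25, 0.87 and 0.13 in control and 0.06, 1.02 and -0.66 in knockdown clones. The differences were -0.08 in control (95% interval -1.65 to 1.48, adjusted p = 0.942) and 0.14 in knockdown clones (95% interval -2.01 to 2.30, adjusted p = 0.969). These intervals are wide, and changes of several-fold in either direction lie within them.

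DUSP5 (A_23_P150018, chromosome 10, 112270900 to 112270959, plus strand) was well above background on all arrays, at -2.17 to -0.48. Mock control clone 2 was the brightest, and the groups overlapped in every comparison. The differences were -0.49 for knockdown in mock clones, -0.04 after treatment, 0.02 for 5-aza-dC in control clones and 0.47 in knockdown clones, with adjusted p of 0.648, 0.948, 0.98 and 0.651. The sign of the difference in control clones turned under quantile normalization, with normexp and with the array median as the scale.

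**Figure D3:**
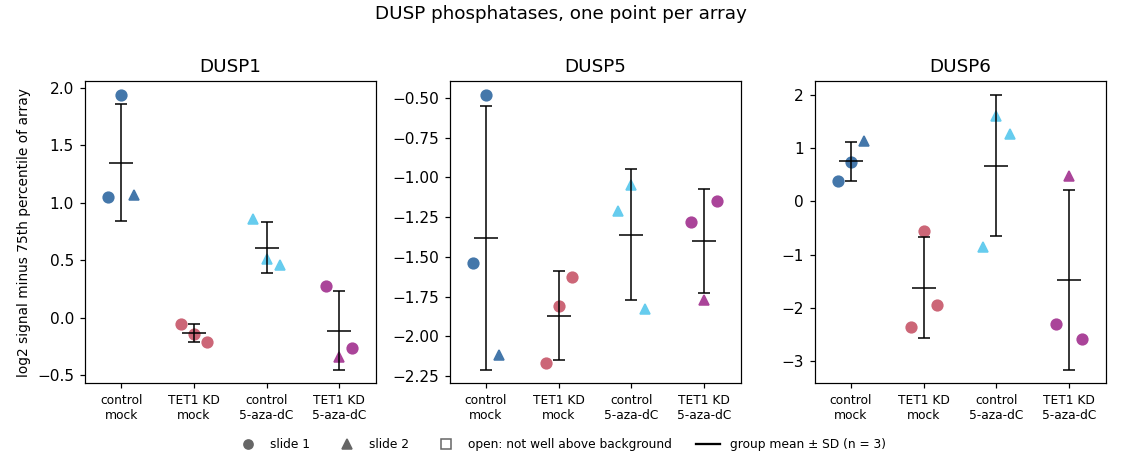
Log2 signal minus the 75th percentile of the array (vertical axis, a separate range in each panel) of the DUSP genes in each of the 12 arrays, by group, with circles for slide 1, triangles for slide 2 and bars for the mean ± SD (n = 3). DUSP1 and DUSP6 are lower in all mock knockdown than in all mock control clones, and treated knockdown clone 2, the triangle at 0.47, is the only treated knockdown array above 0 for DUSP6.

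**Figure D4:**
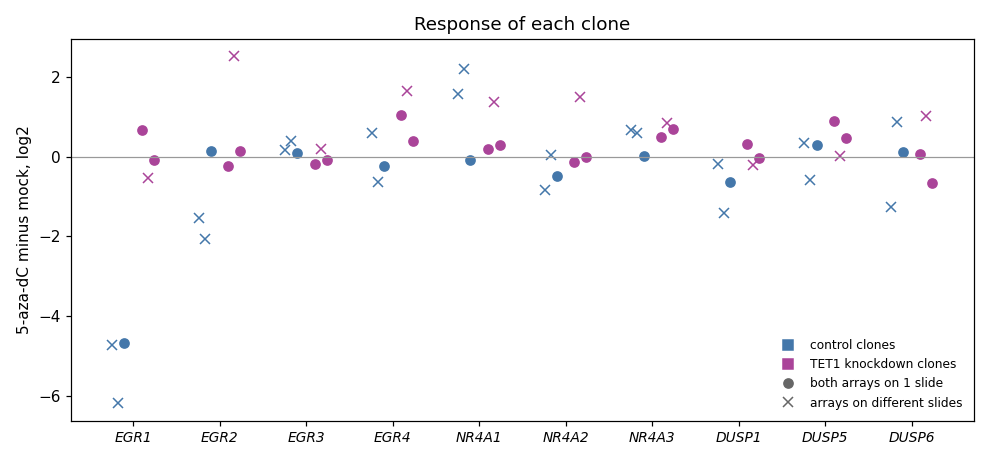
Response of each clone to 5-aza-dC, as treated minus mock log2 signal (vertical axis), for the 10 genes by their brightest probe, with control clones in blue and knockdown clones in purple. Circles are clones whose arrays shared a slide and crosses those whose arrays did not. The EGR1 responses of control clones, from -6.19 to -4.68, lie apart from all other points.

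Over all members, knockdown in mock clones was called for 1 of the 7 members tested, EGR1, which was lower. Of all probes tested, 0.137% were called in this comparison. All 7 differences were below 0, with a median of -1.49 against 0.04 over all probes. Of the 8 member probes tested, 7 were below 0, with a median of -0.99. The second NR4A2 probe was at 0.37 (-0.44 on slide 1). EGR4 passed the filter through the control arrays, being well above background on 3 of these and on 1 knockdown array. In 4 members (EGR1, EGR4, DUSP1 and DUSP6) the unadjusted p was under 0.05, as it was for 2762 of all 24752 probes tested. With slide as a block, EGR4 was called too. After treatment, 0 of 8 members were called for knockdown, against 0.096% of all probes, with 3 at an unadjusted p under 0.05 (4811 of 24997 over all probes) and 0 called by the methods' t-test. Their median difference was -0.71, against -0.01 over all probes, and 7 of 8 were below 0. Of the 9 member probes tested, 7 were below 0.

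For 5-aza-dC in control clones, 1 of 8 members was called, EGR1, against 5.22% of all probes. The median member differed by -0.08, against -0.02 over all probes, with 5 of 8 below 0. In knockdown clones 0 of 8 were called, against 2.05% of all probes, while 1 (EGR4) had an unadjusted p under 0.05 (2323 of 25389 over all probes) and the methods' t-test called 0. All 8 differences were above 0 there, with a median of 0.46 against -0.09 over all probes, but those of EGR1, DUSP1 and DUSP6 were below 0 with the array median as the scale, and that of EGR1 also under quantile normalization and normexp. NR4A1 and EGR4 passed the filter through the treated arrays. Both were well above background on 3 of 3 of these, against 0 and 1 of 3 mock arrays. The filter thus favoured a difference above 0 for them, and their signs add no support to a common direction. In the interaction, 1 of 9 members was called, EGR1, against 0.0366% of all probes. EGR1 was thus called in the 2 comparisons that involve the mock control clones and in the interaction, all of which share those 3 arrays. The other members were not called in any of the 5.

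**Figure D5:**
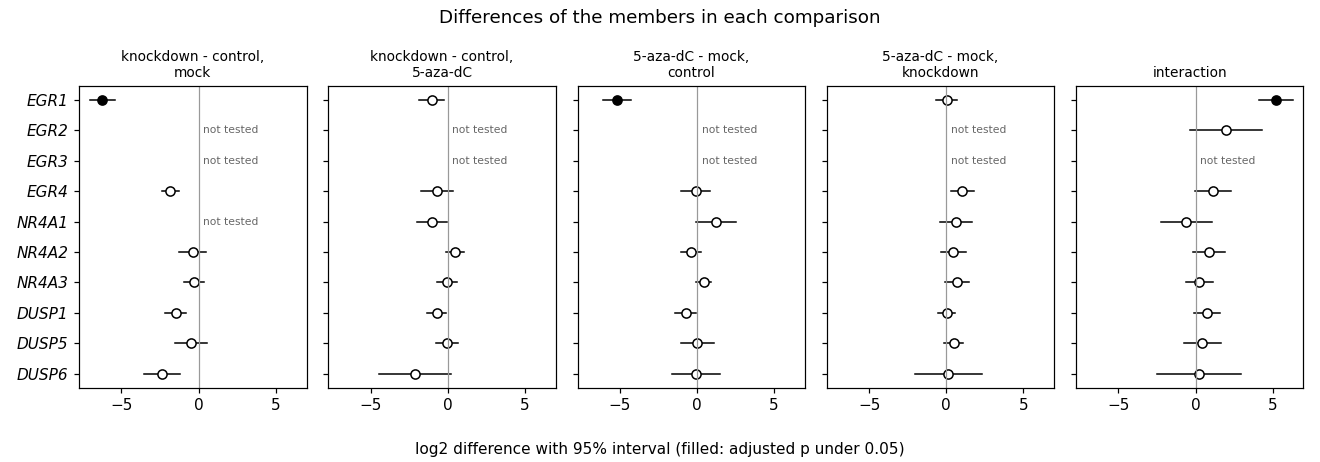
Log2 differences with 95% intervals (horizontal axis) of the 10 genes by their brightest probe, 1 panel for each comparison, with filled points where the adjusted p was under 0.05 and "not tested" where the probe was too dim. EGR1 has the only filled points, at -6.25, -5.20 and 5.21, and the intervals of DUSP6 are the widest.

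Genes that lie upstream of the members showed no called difference. Of 22 genes of the ERK cascade, from the receptors to RAS, RAF, MEK, ERK and the RSK kinases, 19 were tested in each comparison and limma called 0, with 0 to 4 at an unadjusted p under 0.05. All 12 genes of the serum response factor, ETS-domain partner and CREB list were tested and limma called 0 in any comparison, with 0 to 3 at an unadjusted p under 0.05. Over all probes, 2762 of 24752 had such a p for knockdown in mock clones and 4811 of 24997 after treatment. For 5-aza-dC, 6537 of 24641 had one in control and 2323 of 25389 in knockdown clones, and 672 of 27287 in the interaction. Of all probes, 0.0366% (interaction) to 5.22% (5-aza-dC in control clones) were called, so 0 calls in lists of this size carry little weight. In mock knockdown clones SRF and CREB1, named after their values were seen, differed by 0.05 (adjusted p = 0.915) and -0.08 (adjusted p = 0.896). Others, also named after their values were seen, differed by more in either direction. These included MKL1 (-0.70, adjusted p = 0.415), CRTC1 (0.93, adjusted p = 0.43), FGFR1 (-0.74, adjusted p = 0.364) and BRAF (0.74, adjusted p = 0.328). The median differences of these lists in mock clones were 0.17 and -0.08, against 0.04 over all probes. The arrays measure RNA, and the phosphorylation by which these proteins are regulated was not measured.

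Of 15 further feedback and output genes of the ERK pathway, 11 to 13 were tested and limma called 0, with 0 to 2 at an unadjusted p under 0.05. ETV5, a transcription factor known as an output of ERK signalling and named after its values were seen, differed by -2.34 in mock knockdown clones (adjusted p = 0.289), close to DUSP6. Others of the list went the other way there, such as ERRFI1 (1.54, adjusted p = 0.448) and ETV1 (0.80, adjusted p = 0.371). Of the 13 tested in that comparison, 9 differences were below 0, with a median of -0.15. Of 7 other MAP kinase phosphatases, 6 or 7 were tested and limma called 0, with 0 to 1 at an unadjusted p under 0.05. The EGR corepressors NAB1 and NAB2 and the retinoid X receptors that pair with NR4A proteins, 5 genes in all, also had 0 called, with 0 to 1 at an unadjusted p under 0.05. In the comparisons of 2 groups, 0 genes of these 5 lists were called by the methods' t-test. NAB2, itself a known EGR target and named after its values were seen, differed by -0.78 in mock knockdown clones (adjusted p = 0.399) and by 0.98 in treated control clones (adjusted p = 0.117).

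Of 20 other immediate-early genes, 18 were tested in mock clones and 1 was called, FOS, which encodes a subunit of the AP-1 transcription factor. FOS was at 4.15 ± 0.83 (SD, n = 3) in mock control and -1.82 ± 0.52 in mock knockdown clones (-5.98, SE 0.47, adjusted p = 0.0107), and it was not called without control clone 1 (-5.98, adjusted p = 0.104), knockdown clone 1 (-5.96, adjusted p = 0.129) or knockdown clone 3 (-5.73, adjusted p = 0.0906). In treated clones FOS was at -0.86 ± 0.25 in control and -2.22 ± 0.12 in knockdown clones. Of the 18 tested for 5-aza-dC in control clones, 3 were called, all lower, namely FOS (-5.01, adjusted p = 0.00219), FOSB (-4.33, adjusted p = 0.0384) and JUN (-1.22, adjusted p = 0.0285), all AP-1 subunits. FOSB was well above background on 2 of 3 treated control arrays. Values with slide as a block are not given for these 3 genes. Over all probes, 515 were called with that block for 5-aza-dC in control clones, against 1286 without it. None of the 3 was called without control clone 1 (FOS -5.0, adjusted p = 0.109) or without control clone 2 (FOS -4.72, adjusted p = 0.0777), and JUN was not called with clone as a block (adjusted p = 0.0502). The interaction was called for FOS alone, at 4.61 (adjusted p = 0.0327), and when single clones were left out it was called only without control clone 3. With clone as a block it was not called (adjusted p = 0.0613). The median difference of the list was -0.52 in mock knockdown clones and 0.01 in treated control clones. In mock clones 16 of the 18 differences were below 0 and 7 had an unadjusted p under 0.05, and in control clones 8 of 18 were below 0 and 8 had one after treatment. Over all probes, 2762 of 24752 had one in mock clones and 6537 of 24641 in control clones after treatment. The methods' t-test called 0 genes of the list in mock clones and 1 for 5-aza-dC in control clones.

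The genes with the profile most like that of EGR1 over the 12 arrays were searched by the root mean square difference of centred log2 values, over 20749 probes. FOS was the nearest, at 0.39, against a standard deviation of EGR1 itself over the arrays of 2.73. FOSB (1.08), HAS2 (1.21), FLNA (1.61) and HAS2-AS1 (1.62) followed at a distance. HAS2-AS1 had a mean of -3.59 in mock control clones and means of -6.25 to -5.51 in the other groups, near the floor. HAS2 was at -6.09 in mock and -5.96 in treated knockdown clones. Such probes can pass the filter only through groups where they are high, so their likeness to EGR1 carries no weight. For DUSP6 (standard deviation 1.55) the nearest were COL12A1 and DPF3, both at 0.54, EMX2OS and MANSC4, both at 0.56, and ZNF618, at 0.57. For NR4A1 (standard deviation 0.88) they were SCARF2 (0.21), TTI2 (0.23), TRAF7 and MARCH8 (both 0.24) and COG1 (0.26). These are descriptions over 12 arrays that share clones and slides.

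Markers of other cell types moved with some of the groups. The summed level of 5 neuroendocrine markers was 0.08 to 2.33 in treated control clones, -3.39 to -1.88 in mock control clones and -3.37 to -2.56 in knockdown clones of both kinds. CHGA, the only one of the list called there (6.01, adjusted p = 0.0289, not called without control clone 2 or 3 and not tested without control clone 1), was well above background on 4 of 12 arrays, and INSM1 on none. The summed level of 3 fibroblast markers was -0.68 to -0.29 in treated and -2.61 to -1.88 in mock control clones, with COL1A1 called (1.93, adjusted p = 0.0165, not called without control clone 1 or 2), COL1A2 on no array well above background and DCN on 1. The sums add linear signals and so follow the brightest probe of a list. This was CDX2 (7.67 to 9.27 over the arrays) for the epithelial and PTPRC (0.21 to 1.18) for the leukocyte list. PTPRC, CD14 and COL1A1 were well above background on 12 of 12 arrays. In mock clones the sums of the epithelial markers (8.36 to 9.34 in control, 7.83 to 8.49 in knockdown clones) and of 3 leukocyte markers (0.81 to 1.41 and 0.39 to 0.82) overlapped. Those of 2 endothelial markers (-3.09 to -2.66 and -2.60 to -2.31) did not, with PECAM1 on no array well above background. In treated against mock control clones, the epithelial marker KRT20 was higher (1.35, adjusted p = 0.0216, not called without control clone 1 or 2) and the endothelial marker CDH5 lower (-1.20, adjusted p = 0.0327, not called without control clone 2 or with clone as a block, and not tested without control clone 1). In treated against mock knockdown clones, EPCAM was higher (4.21, adjusted p = 0.0157), a call that was lost without any one of the knockdown clones. The part of these markers in the EGR1 differences was not tested.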

How the data were processed

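RNA of 12 Colo320DM arrays was hybridised to 1-colour Agilent 60-mer arrays. The authors deposited scanner files with the intensity of each spot. Per the file headers these came from Feature Extraction 10.7.3.1, on positions of hg19, and arrays were not normalized to each other. The deposited series table was used as an alternative and repeats this intensity to within 0.497%. The authors' later steps used GeneSpring, with t tests and Benjamini-Hochberg correction. Groups and clone numbers were taken from the labels, and slides from the files.

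Control spots and outlier spots were left out (268 to 395 outlier spots per array), spots of a probe were averaged, and log2 signals were centred on the 75th percentile of each array. A probe was tested where 3 or more arrays of the fit had it well above background, that is, in 50% or more of its spots. Comparisons used limma 3.58.1 (lmFit and eBayes, two-sided, R 4.3.3, with tables read by data.table version 1.17.8), fitted to the arrays of the 2 groups or on all 12 arrays for the interaction, and were tested on simulated data. The simulated arrays held no slide effect and no correlation between arrays of the same clone. The interaction is the response of knockdown clones minus that of control clones. No spot was saturated, and the number of arrays limits the precision.

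The members, the lists and the tests were chosen with earlier results of these data known. Named genes were the members, TET1, up to 4 called genes per list and comparison, and the 5 genes most like EGR1, NR4A1 and DUSP6, and a few list genes that were not called were named after their values were seen. Mock and treated arrays of the same clone type and number come from the same clone per the labels, and their deviations from the group means correlated at 0.213 to 0.316 in the control pairs and 0.431 to 0.525 in the knockdown pairs. The alternatives were other normalizations, scales, filters and spots, the series table, slide or clone as a block, all arrays in 1 fit, the methods' t-test and leaving out each clone. Exon annotation of hg19 was not used here. Values of some single genes of the lists are not reported here.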

Additional observations from a re-analysis of the deposited data

Results flagged for a closer look

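The response of EGR1 to 5-aza-dC differed between clone types by the test of the difference itself, with an interaction of 5.21 (SE 0.50, adjusted p = 0.0079, limma on all 12 arrays). EGR1 was lower after treatment in 3 of 3 control clones and in 2 of 3 knockdown clones, by far less in the latter. The call was lost with clone as a block (adjusted p = 0.164), and 0 to 1 members were called when single clones were left out.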

How the results depend on the processing

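The precision is limited by 3 clones a group, by groups spread unevenly over 2 slides and by the low signal over background of EGR2, EGR3, NR4A1 and the second NR4A probes. Of the single-gene values under the alternatives, 586 kept their sign and side of the threshold, 7 gained a call, 11 lost one and 32 changed sign. The cause of these changes was not tested unless stated.

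For knockdown in mock clones, 2 members were called with slide as a block (EGR1, EGR4), 2 in all 12 arrays with slide as a block (EGR1, DUSP1) and 0 by the methods' t-test, and 1 to 2 when single clones were left out. For knockdown after treatment, 0 to 2 were called when single clones were left out, the 2 being NR4A1 (-1.50, adjusted p = 0.00565) and DUSP6 without knockdown clone 2. There 7729 of all probes were called against 24, and each slide then held 1 group. The cause was not tested. For 5-aza-dC in control clones, 0 were called with clone as a replicate block and slide as a block (EGR1 -4.68, adjusted p = 0.114) and 0 to 3 when single clones were left out. The 3 were EGR1, NR4A1 (1.89) and NR4A3 (0.64) without control clone 3, where each slide again held 1 group. In knockdown clones 0 were called under every alternative run. For the interaction, 0 were called with clone as a replicate block, also 0 with slide added (EGR1 4.94, adjusted p = 0.17), and 0 to 1 when single clones were left out, the call being kept without control clone 3 only. The replicate block changed no other call of a member.

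The signs that changed belonged to differences that were not called. For knockdown after treatment, NR4A1 was 0.06 in all 12 arrays with slide as a block. For 5-aza-dC in control clones, DUSP5 was -0.07 under quantile normalization, -0.08 with normexp and -0.19 on the array median, EGR4 was 0.31 with slide as a block, and NR4A1 -0.09 and DUSP6 0.13 with clone and slide as blocks. In knockdown clones, EGR1 was -0.11 under quantile normalization, -0.07 with normexp and -0.25 on the array median, DUSP1 -0.24 and DUSP6 -0.12 on the array median, DUSP6 -0.83 with slide as a block, -0.44 in all 12 arrays with slide and -0.30 with clone and slide as blocks, and NR4A2 -0.07 with both blocks. With single clones left out, the ranges that cross 0 were -0.20 to 0.16 (NR4A3) and -0.27 to 0.15 (DUSP5) for knockdown after treatment, -0.43 to 0.18 (EGR4), -0.14 to 0.31 (DUSP5) and -0.56 to 0.50 (DUSP6) for 5-aza-dC in control clones, -0.31 to 0.30 (EGR1), -0.07 to 0.75 (NR4A2), -0.12 to 0.14 (DUSP1) and -0.30 to 0.54 (DUSP6) in knockdown clones, and -0.36 to 0.70 (DUSP6) in the interaction. The array median moved the median of all probes by -0.21 for 5-aza-dC in control and -0.26 in knockdown clones. Over all probes the counts called ranged from 4 to 115 for knockdown in mock clones (main 34), 0 to 7729 after treatment (24), 0 to 5345 for 5-aza-dC in control (1286), 0 to 844 in knockdown clones (521) and 1 to 14 for the interaction (10).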
